A study of Arabidopsis thaliana with 12 samples.

Results

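The abscisic acid synthesis and breakdown genes are 10 Arabidopsis thaliana loci taken by their AGI locus codes from a table of 27588 genes, and they were followed across 4 genotypes. All 10 passed the filter on low counts that kept 21235 genes for testing. Abscisic acid is the plant hormone of drought, salt and seed dormancy responses. It is made from oxygenated carotenoids of the plastid, and their cleavage by the NCED dioxygenases is regarded as the main control point of synthesis. The hormone is inactivated mostly by hydroxylation, which the CYP707A cytochrome P450 enzymes carry out, so its level in a tissue depends on both arms.

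Messenger RNA of whole seedlings was sequenced from a cfh1 mutant, a CFH1 decoy line, a PIF3 over-expression line and the wild type Col-0, with 3 libraries each, and the labels give the Columbia 0 ecotype for every library. Seedlings of all 4 genotypes had 7 days of 12 h light and 12 h dark, then constant red light until their harvest on day 12 at zeitgeber time 1, the hour counted from the former dawn. The series title names CFH1 as a tie between the circadian clock and the red-light response, and PIF3 encodes a bHLH transcription factor that phytochromes act on. The titles of the PIF3 libraries name a mutant, whereas the genotype field, which was followed here, and the description name over-expression. The promoter that drives PIF3, the form of the decoy, the number of independent lines and the locus of CFH1 were not found in the labels used here. Whether the 3 libraries of a line came from separate cultures is not stated, so the p-values reflect spread among these libraries, which may be technical. Levels are in CPM, the read counts after scaling each library by its size and TMM factor. A gene was called changed at an adjusted p under 0.05 (edgeR quasi-likelihood test, 2-sided, Benjamini-Hochberg over all genes tested).

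Total counts were 21914548 to 34345371 per library. PIF3 (AT1G09530) stood at 348, 350 and 363 CPM in the PIF3 over-expression libraries, against 22.8, 26.6 and 36.9 CPM in the Col-0 libraries, so its level goes with the over-expression label. In the decoy line 69 genes had at most 3 counts over its 3 libraries together while reaching 1 CPM in every other library, and no other genotype had such genes. None of the 10 abscisic acid genes was among them, but an effect of the decoy and a genetic background other than Col-0 cannot be told apart. With 1 collection time, a changed level and a shifted daily rhythm cannot be told apart for any gene. In whole seedlings, fewer cells of a type and less RNA per cell cannot be told apart either.

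The promoters of the 4 genes that passed the test in at least 1 line against Col-0 are shown first, because the results refer back to their letters. Each is the 250 bases before the annotated gene start, read 5′ to 3′ on the strand of the gene from the RefSeq TAIR10.1 genome. They lie at chr3:4834016-4834265 (minus strand) for NCED3, chr1:5659120-5659369 (plus strand) for ABA3, chr4:10521009-10521258 (plus strand) for CYP707A1 and chr5:18371022-18371271 (minus strand) for CYP707A3. Capitals mark matches to the G-box CACGTG, a motif that PIF factors and the bZIP factors of the abscisic acid response are known to bind, and to its core ACGTG. Both strands were searched, and every G-box contains the core on each strand.
NCED3 promoter: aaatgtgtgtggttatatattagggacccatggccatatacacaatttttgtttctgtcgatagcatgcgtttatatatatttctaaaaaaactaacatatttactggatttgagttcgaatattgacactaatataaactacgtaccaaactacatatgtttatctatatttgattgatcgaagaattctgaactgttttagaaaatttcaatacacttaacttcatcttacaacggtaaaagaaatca
ABA3 promoter: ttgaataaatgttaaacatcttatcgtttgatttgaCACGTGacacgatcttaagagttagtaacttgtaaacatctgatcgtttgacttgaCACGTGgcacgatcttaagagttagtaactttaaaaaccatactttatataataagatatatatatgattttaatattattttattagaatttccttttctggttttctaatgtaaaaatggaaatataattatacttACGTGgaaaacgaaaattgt
CYP707A1 promoter: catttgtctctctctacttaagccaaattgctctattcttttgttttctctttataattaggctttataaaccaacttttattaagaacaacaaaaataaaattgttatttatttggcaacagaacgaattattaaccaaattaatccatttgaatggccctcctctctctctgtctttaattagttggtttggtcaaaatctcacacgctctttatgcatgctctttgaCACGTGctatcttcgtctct
CYP707A3 promoter: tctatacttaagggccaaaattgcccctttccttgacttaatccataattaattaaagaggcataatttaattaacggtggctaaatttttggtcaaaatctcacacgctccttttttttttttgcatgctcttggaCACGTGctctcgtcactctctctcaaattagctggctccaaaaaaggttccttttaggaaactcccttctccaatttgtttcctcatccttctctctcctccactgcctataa

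The NCED3 promoter held neither motif in these 250 bases, the ABA3 promoter held 2 G-boxes, and the CYP707A1 and CYP707A3 promoters held 1 each. Of the 10 genes, 4 had a G-box in this window, namely those 3 and NCED9, beside 6.49% of 27443 promoters of the same length. The core was found in 6 of the 10 genes, with ABA1 and CYP707A4 added, beside 22.9% of all such promoters. The G-box began 20 bases before the annotated start in CYP707A1 and 113 bases before it in CYP707A3. These promoters also shared a run of 23 bases, tttggtcaaaatctcacacgctc, upstream of the G-box in both. Among the 45 pairs of promoters of the 10 genes the next longest shared run was 11 bases and the median was 9. A match describes letters in a window and says nothing of binding.

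Per kilobase of the longest annotated transcript, the 10 genes covered a wide range of levels in Col-0. ABA1 was highest at 81.8 ± 5.44 CPM per kilobase (SD, n = 3), followed by ABA2 at 12.3 ± 0.812 and CYP707A1 at 9.46 ± 0.705 CPM per kilobase. ABA3 at 5.52 ± 0.291 and AAO3 at 4.50 ± 0.754 CPM per kilobase came next and overlapped. NCED3, CYP707A2 and CYP707A3, at 2.31 ± 0.421, 2.18 ± 0.550 and 2.01 ± 0.230 CPM per kilobase, did not differ beyond their spread. CYP707A4 at 0.490 ± 0.180 and NCED9 at 0.179 ± 0.0875 CPM per kilobase were lowest. The order differed between genotypes. In the PIF3 over-expression line CYP707A1 took rank 2 at 24.9 ± 10.4 and NCED3 rank 4 at 10.9 ± 5.27 CPM per kilobase, and in the decoy line CYP707A1 took rank 7 at 2.61 ± 0.819 CPM per kilobase. The plot of every gene in every library shows the levels on the CPM scale.

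**Figure D1:**
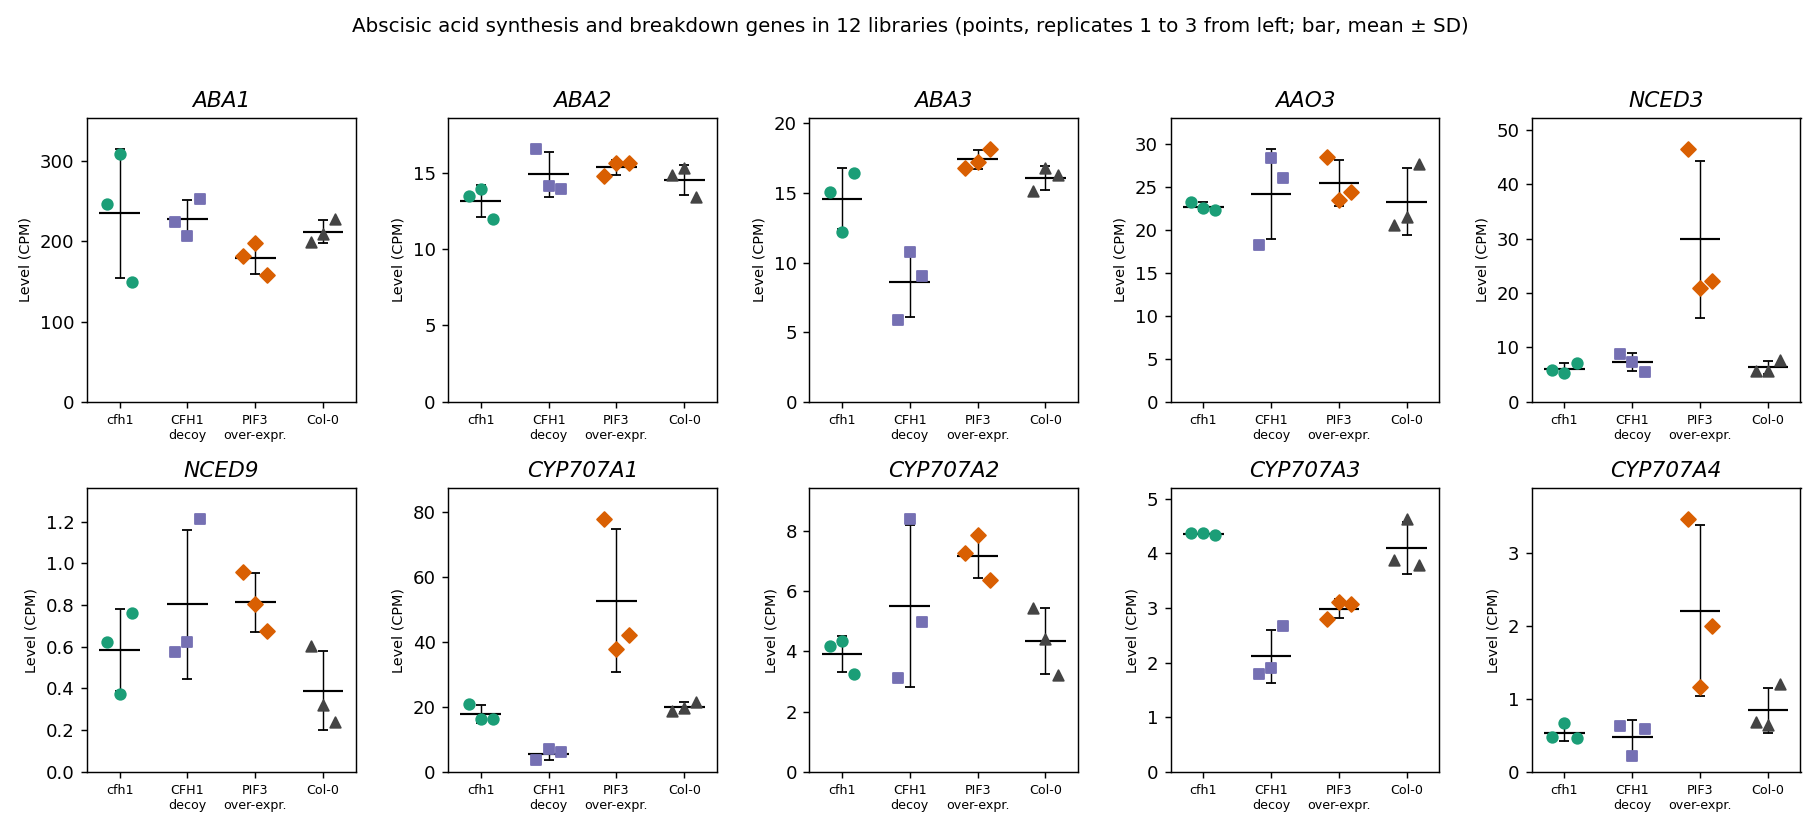
Level of each of the 10 genes in CPM (linear axis from 0) in the 12 libraries. Points are libraries (replicates 1 to 3 from left), horizontal lines are means and bars are SD over 3 libraries. NCED3 and CYP707A1 stand above all other libraries in the PIF3 over-expression line, and ABA3, CYP707A1 and CYP707A3 stand below all other libraries in the CFH1 decoy line.

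In the PIF3 over-expression line 2 of the 10 genes were higher than in Col-0 and none was lower, beside 13.3% of all genes tested called in either direction. They were NCED3, which makes the cleavage that commits carotenoids to the hormone, and CYP707A1, which breaks the hormone down. In the CFH1 decoy line 3 of the 10 were lower than in Col-0 and none was higher, beside 40.8% of all genes, so the share called was no larger than that of the table. They were the breakdown genes CYP707A1 and CYP707A3 and the cofactor gene ABA3. In the cfh1 mutant none of the 10 passed the edgeR test against Col-0, beside 0.0706% of all genes. Of the 10, 0 had an unadjusted p under 0.05 in that comparison, beside 964 of all 21235 genes tested by edgeR, and DESeq2 called 0.

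**Figure D2:**
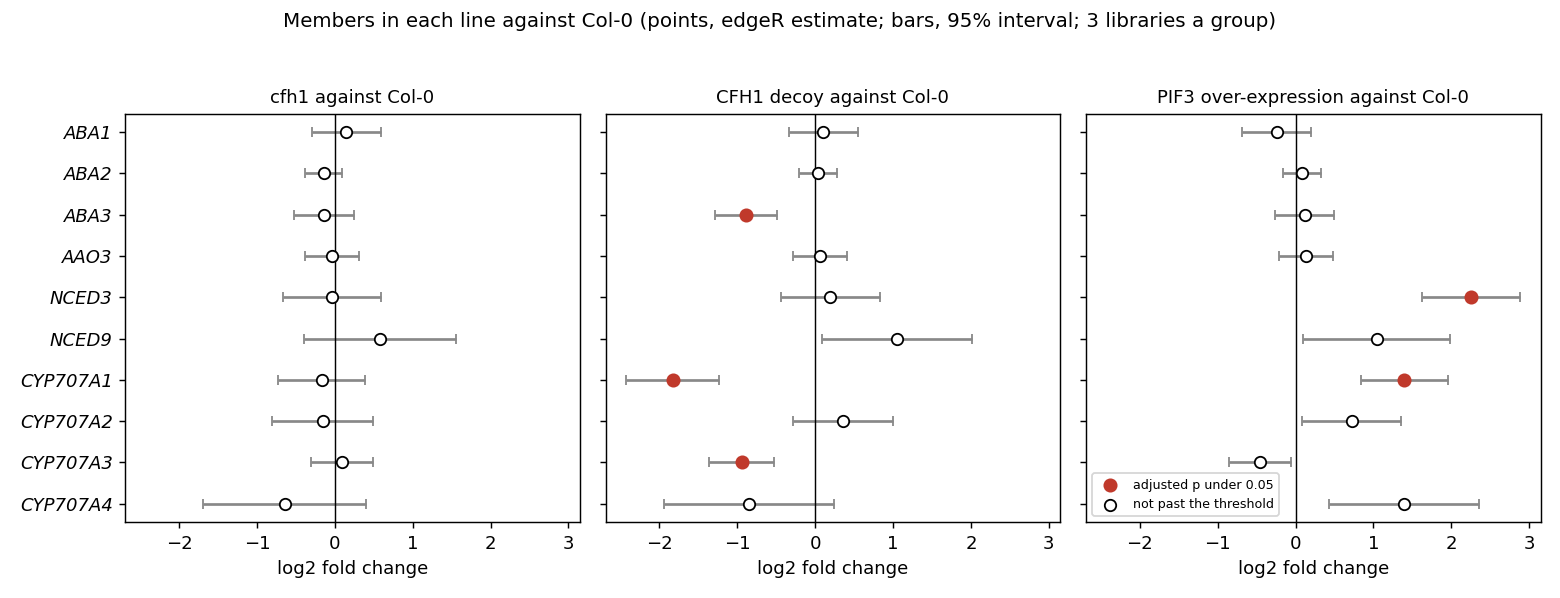
Log2 fold change of each of the 10 genes in cfh1, the CFH1 decoy line and the PIF3 over-expression line against Col-0, with the edgeR estimate as a point and its 95% interval as a bar (3 libraries a group). Filled points passed an adjusted p of 0.05: none in cfh1, ABA3, CYP707A1 and CYP707A3 on the lower side in the decoy line, and NCED3 and CYP707A1 on the higher side in the PIF3 over-expression line.

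ABA1 (AT5G67030) encodes zeaxanthin epoxidase, which makes the epoxidized carotenoids that feed the NCED step. It had 247, 310 and 149 CPM in cfh1, 224, 206 and 254 CPM in the decoy line, 182, 198 and 158 CPM in the PIF3 over-expression line and 200, 209 and 228 CPM in Col-0. The cfh1 libraries spread widest and enclosed all 9 others, and the PIF3 over-expression libraries lay just below all Col-0 libraries. That last difference, a log2 fold change of -0.24 (SE 0.205), did not pass the test (edgeR adjusted p = 0.485).

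NCED3 (AT3G14440), the NCED dioxygenase best known from drought-stressed plants, is a gene of 1 exon at chr3:4831286-4834015 (TAIR10.1, minus strand). It had 46.6, 20.9 and 22.2 CPM in the PIF3 over-expression line. It had 5.79, 5.31 and 7.20 CPM in cfh1, 8.80, 7.38 and 5.55 CPM in the decoy line and 5.57, 5.69 and 7.63 CPM in Col-0. All 3 PIF3 over-expression libraries lay above all 9 others, with replicate 1 highest, and the remaining 3 genotypes overlapped. Against Col-0 the PIF3 over-expression line was 4.76-fold higher (95% interval 3.07 to 7.36), in 3 of 3 libraries, at a log2 fold change of 2.25 (SE 0.291, edgeR adjusted p = 0.00117). Without PIF3 over-expression replicate 1 the log2 fold change was 1.78, and the call held in every alternative tried. The interval of the cfh1 fold against Col-0, 0.628 to 1.51, and that of the decoy fold, 0.738 to 1.78, leave room for modest changes in those lines.

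NCED9 (AT1G78390), an NCED gene known for its part in seeds, was near the limit of detection, with 7 to 35 counts per library. Its levels were 0.621, 0.374 and 0.763 CPM in cfh1, 0.575, 0.620 and 1.21 CPM in the decoy line, 0.959, 0.805 and 0.675 CPM in the PIF3 over-expression line and 0.603, 0.323 and 0.240 CPM in Col-0. The PIF3 over-expression libraries lay above those of Col-0 without overlap, whereas the decoy libraries overlapped Col-0. Neither difference passed, at log2 fold changes of 1.04 (SE 0.437, edgeR adjusted p = 0.142) in the PIF3 over-expression line and 1.04 (SE 0.446, edgeR adjusted p = 0.0776) in the decoy line. Over 12 alternatives the decoy value ran from 0.60 without decoy replicate 3 to 1.51 without Col-0 replicate 1, and the last of these was the one that passed.

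ABA2 (AT1G52340), a short-chain dehydrogenase, turns the cleavage product xanthoxin into abscisic aldehyde. It had 13.5, 13.95 and 12.0 CPM in cfh1, 16.6, 14.1 and 13.9 CPM in the decoy line, 14.8, 15.6 and 15.6 CPM in the PIF3 over-expression line and 14.8, 15.3 and 13.4 CPM in Col-0. All 4 genotypes lay close together, and no line differed from Col-0 beyond the spread of its libraries. With library totals alone, ABA2 was called lower in the decoy than the PIF3 over-expression line (log2 fold change -0.39, edgeR adjusted p = 0.0108). The 95% intervals of its folds against Col-0 ran from 0.764 to 1.07 in cfh1, 0.863 to 1.21 in the decoy line and 0.893 to 1.25 in the PIF3 over-expression line, the narrowest of the 10 genes on the log scale. Annotated neighbours AT1G52330 and AT1G07803 share 121 and 349 bases with this locus, and the handling of strand in the counts is not given in the sources used here, so reads of the neighbours cannot be told apart from its own.

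AAO3 (AT2G27150), the aldehyde oxidase that makes abscisic acid from the aldehyde, had 23.3, 22.5 and 22.2 CPM in cfh1 and 18.2, 28.3 and 25.98 CPM in the decoy line. It had 28.5, 23.5 and 24.4 CPM in the PIF3 over-expression line and 20.5, 21.5 and 27.7 CPM in Col-0. The libraries of each line overlapped those of Col-0. The PIF3 over-expression libraries lay narrowly above those of cfh1, a difference that did not pass (log2 fold change 0.165, SE 0.159, edgeR adjusted p = 0.558). The log2 fold changes of AAO3 against Col-0 were -0.03 (SE 0.159) in cfh1, 0.06 (SE 0.160) in the decoy line and 0.13 (SE 0.159) in the PIF3 over-expression line, none past the edgeR threshold. The same limit on strand applies here, since AT2G27160 shares 985 bases with the locus.

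ABA3 (AT1G16540) encodes the sulfurase that activates the molybdenum cofactor of aldehyde oxidases such as AAO3. It had 15.1, 12.2 and 16.5 CPM in cfh1 and 5.87, 10.8 and 9.05 CPM in the decoy line. It had 16.8, 17.2 and 18.2 CPM in the PIF3 over-expression line and 15.1, 16.8 and 16.3 CPM in Col-0. All 3 decoy libraries lay below all 9 others, and the PIF3 over-expression libraries sat narrowly above Col-0. The decoy line was lower than Col-0 by a log2 fold change of -0.89 (SE 0.182, 0.539-fold, 95% interval 0.410 to 0.709, edgeR adjusted p = 0.00228). The log2 fold change of 0.12 (SE 0.177) in the PIF3 over-expression line did not pass (edgeR adjusted p = 0.723). Its promoter is the one printed above with 2 G-boxes.

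CYP707A1 (AT4G19230) encodes a hydroxylase that starts abscisic acid breakdown, and it was the one gene of the 10 to pass the test in both the decoy and the PIF3 over-expression line. It had 21.0, 16.2 and 16.2 CPM in cfh1 and 3.57, 6.88 and 6.10 CPM in the decoy line. It had 78.0, 37.9 and 42.1 CPM in the PIF3 over-expression line and 18.7, 19.7 and 21.6 CPM in Col-0. The decoy libraries were the lowest of the 12 and the PIF3 over-expression libraries the highest, with no overlap with Col-0 on either side. The decoy line was 0.281-fold of Col-0 (95% interval 0.186 to 0.426, log2 fold change -1.83, SE 0.277, edgeR adjusted p = 0.000304). The PIF3 over-expression line was 2.64-fold higher than Col-0 (95% interval 1.79 to 3.88, log2 fold change 1.40, SE 0.259, edgeR adjusted p = 0.00585). Without PIF3 over-expression replicate 1, again the highest library, that value was 1.00 and still passed.

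CYP707A3 (AT5G45340), a second hydroxylase gene of vegetative tissue and the one that shares 23 promoter bases with CYP707A1, had 4.38, 4.38 and 4.33 CPM in cfh1 and 1.78, 1.89 and 2.67 CPM in the decoy line. It had 2.79, 3.10 and 3.07 CPM in the PIF3 over-expression line and 3.88, 4.63 and 3.78 CPM in Col-0. Both the decoy and the PIF3 over-expression libraries lay below all Col-0 and all cfh1 libraries. The decoy line was lower by a log2 fold change of -0.94 (SE 0.194, 0.520-fold, edgeR adjusted p = 0.00234). In the PIF3 over-expression line, where CYP707A1 was higher, CYP707A3 stood at a log2 fold change of -0.46 (SE 0.187), which did not pass (edgeR adjusted p = 0.133).

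CYP707A2 (AT2G29090), the family member known from germinating seeds, had 4.17, 4.34 and 3.23 CPM in cfh1 and 3.11, 8.40 and 4.96 CPM in the decoy line. It had 7.28, 7.87 and 6.38 CPM in the PIF3 over-expression line and 5.43, 4.40 and 3.23 CPM in Col-0. The PIF3 over-expression libraries lay above all Col-0 libraries, and the decoy libraries enclosed both. The log2 fold change of 0.72 (SE 0.294) in the PIF3 over-expression line did not pass (edgeR adjusted p = 0.132), but it did in 2 of 14 alternatives, the fit without the decoy libraries, at 0.73 (edgeR adjusted p = 0.0243), and the fit of the 2 genotypes alone, at 0.72 (edgeR adjusted p = 0.0329).

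CYP707A4 (AT3G19270), a hydroxylase gene that had the lowest level per kilobase of its family in every genotype, gave 7 to 123 counts per library. It had 0.483, 0.673 and 0.458 CPM in cfh1 and 0.633, 0.217 and 0.590 CPM in the decoy line. It had 3.47, 1.16 and 1.996 CPM in the PIF3 over-expression line and 0.689, 0.645 and 1.202 CPM in Col-0. The PIF3 over-expression and Col-0 libraries overlapped by a narrow margin. The log2 fold change of 1.39 (SE 0.444) in the PIF3 over-expression line did not pass (edgeR adjusted p = 0.0558), and over 14 alternatives it ran from 0.91 to 1.72, with 4 that passed. Without PIF3 over-expression replicate 1, its highest library, it was 0.91 (edgeR adjusted p = 0.298), and without replicate 2 it was 1.70 and passed (edgeR adjusted p = 0.0266). It also passed by DESeq2 at 1.39 (adjusted p = 0.0342), with library totals alone and without the decoy libraries.

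The make-up of the breakdown family differed between the lines, as the plot of shares within the family shows. Of the summed CPM per kilobase of the 4 CYP707A genes, CYP707A1 took 65.5 ± 3.40% in cfh1, 39.1 ± 1.87% in the decoy line, 78.6 ± 4.88% in the PIF3 over-expression line and 66.9 ± 3.77% in Col-0 (SD, n = 3 each). The decoy libraries, at 37.7% to 41.2%, lay below and the PIF3 over-expression libraries, at 74.5% to 84.0%, lay above the Col-0 range of 63.8% to 71.1%. CYP707A2 took 39.8 ± 8.32% in the decoy line, against 15.4 ± 4.20% in Col-0, and its decoy share overlapped that of CYP707A1. CYP707A3 took 5.08 ± 1.72% in the PIF3 over-expression line, against 14.2 ± 1.61% in Col-0. The sum itself was 4.48 to 8.51 CPM per kilobase in the decoy line and 24.1 to 43.9 in the PIF3 over-expression line, against 13.8 to 14.4 in Col-0. These shares are compared by their ranges, with no test. CYP707A1 was called in both lines, and its level moves the shares of the rest, so the shares add no support to those calls. CYP707A2 itself was not called in the decoy line (log2 fold change 0.35, SE 0.297, edgeR adjusted p = 0.362). CYP707A3 was not called in the PIF3 over-expression line.

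**Figure D3:**
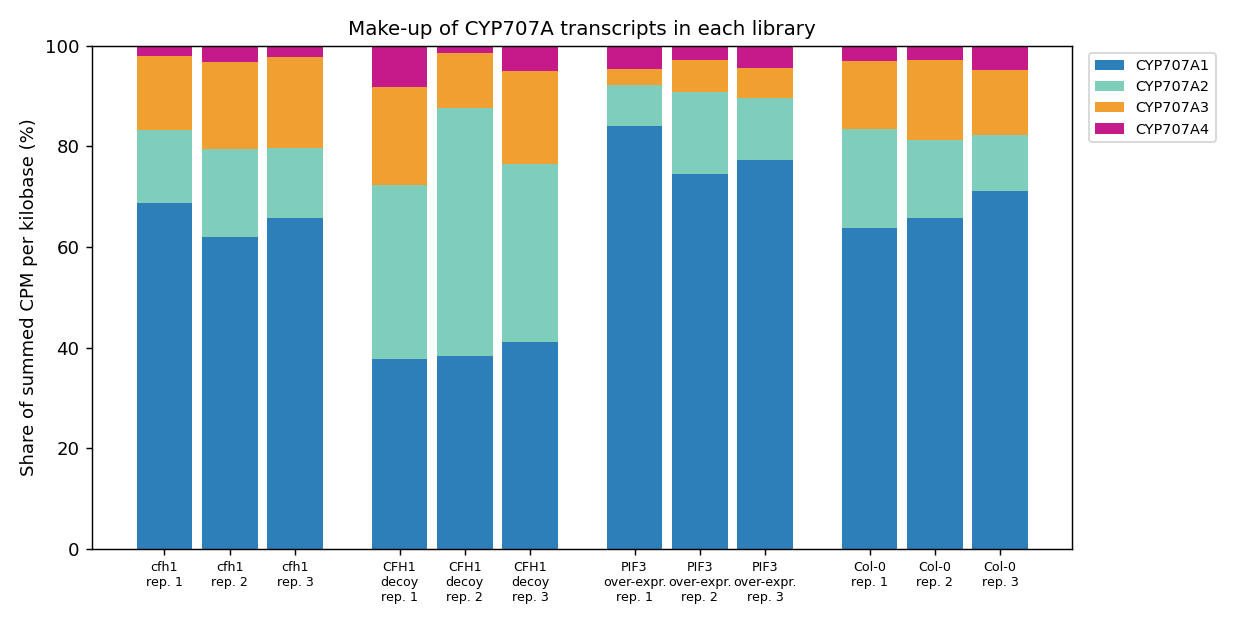
Share of each CYP707A gene in the summed CPM per kilobase of the 4 genes, in percent, for each of the 12 libraries (1 bar a library). CYP707A1 makes up 37.7% to 41.2% in the decoy libraries and 74.5% to 84.0% in the PIF3 over-expression libraries, against 63.8% to 71.1% in the Col-0 libraries.

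The synthesis gene NCED3 and the breakdown gene CYP707A1 were set side by side as the ratio of their levels per kilobase. Both are among the genes called above, so the ratio adds no support to those calls. It leaves out the other genes of synthesis and breakdown. The ratio was 0.213 to 0.344 in cfh1, 0.704 to 1.91 in the decoy line and 0.409 to 0.462 in the PIF3 over-expression line, against 0.223 to 0.273 in Col-0. Both the decoy and the PIF3 over-expression libraries thus lay above every Col-0 library. In the decoy line CYP707A1 was called lower and NCED3 was not called, and in the PIF3 over-expression line both were called higher. No hormone was measured, and the ratio describes transcripts alone.

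**Figure D4:**
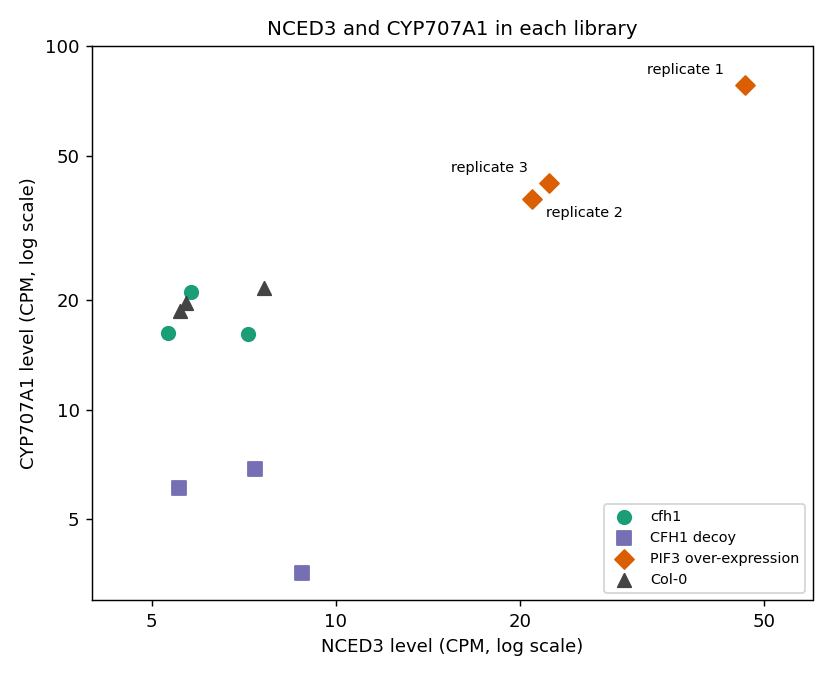
CYP707A1 level against NCED3 level in CPM (both axes logarithmic), with 1 point a library and the 4 genotypes by colour and shape. The PIF3 over-expression libraries stand at the upper right with replicate 1 farthest out, and the decoy libraries stand below the Col-0 and cfh1 libraries at NCED3 levels that overlap theirs.

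The lines were also compared with one another. Against cfh1 the decoy line was lower at 3 of the 10 genes and higher at none, beside 33.2% of all genes, with log2 fold changes of -0.75 for ABA3, -1.66 for CYP707A1 and -1.03 for CYP707A3 (edgeR adjusted p of 0.00753, 0.000726 and 0.00165). Against cfh1 the PIF3 over-expression line was higher at 3 and lower at none, beside 12.9% of all genes. They were NCED3 at 2.29, CYP707A1 at 1.56 and CYP707A4 at 2.04 (edgeR adjusted p of 0.00101, 0.0035 and 0.015). The CYP707A4 call was lost without PIF3 over-expression replicate 1, at 1.56 (edgeR adjusted p = 0.0827), and without cfh1 replicate 1, at 1.97 (edgeR adjusted p = 0.0669). Between the decoy line and the PIF3 over-expression line 4 of the 10 genes differed, all lower in the decoy line, beside 43.3% of all genes: ABA3 at -1.01 (edgeR adjusted p = 0.000774), NCED3 at -2.05 (0.000137), CYP707A1 at -3.23 (3.62e-06) and CYP707A4 at -2.25 (0.00253). Comparisons that share libraries are not independent of each other.

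Genes known to be induced by abscisic acid were looked at as a list of 10, made up of the desiccation gene RD29B, the dehydrin gene RAB18, the phosphatase genes HAI1, HAI2 and HAI3, and the transcription factor genes RD26, ABF3, ABI5, ATHB7 and ATHB12. All 10 were called higher in the PIF3 over-expression line than in Col-0, beside 13.3% of all genes called in either direction. Their median log2 fold change was 2.75, against -0.001 over all genes tested. The list was chosen with earlier results of these data known. RD29B had 706, 144 and 188 CPM in the PIF3 over-expression line, against 3.13, 4.87 and 36.4 CPM in Col-0 (log2 fold change 4.56, SE 0.891, edgeR adjusted p = 0.00725). HAI3 had 41.0, 4.47 and 11.1 CPM in the PIF3 over-expression line, against 0.344, 0.352 and 1.61 CPM in Col-0 (log2 fold change 4.65, SE 0.772, edgeR adjusted p = 0.00364). RAB18 had 3295, 515 and 577 CPM in the PIF3 over-expression line, against 8.78, 12.1 and 191 CPM in Col-0 (log2 fold change 4.38, SE 1.10, edgeR adjusted p = 0.0209). In these 3 genes replicate 1 of the PIF3 over-expression line and replicate 3 of Col-0 stood far above their sister libraries, without overlap between the genotypes.

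Replicate 1 of the PIF3 over-expression line was the highest of its group at 9 of the 10 induced genes. Without it RAB18 stood at 2.95 (edgeR adjusted p = 0.103) and ABI5 at 1.05 (edgeR adjusted p = 0.0902), both no longer called, and the other 8 passed. The log2 fold change without it was 3.51 for RD29B, 3.71 for HAI2 and 3.36 for HAI3, in place of 4.56, 4.38 and 4.65. Without Col-0 replicate 3 the values were larger, at 6.44 for RD29B, 7.13 for RAB18, 4.43 for HAI1 (3.62 with it), 5.999 for HAI2 and 5.74 for HAI3. The size of these folds thus depends on 2 single libraries, 1 in each genotype. RAB18 and ABI5 also missed the threshold without Col-0 replicate 1 or replicate 2. In the decoy line 2 of the 10 induced genes were lower than in Col-0 and none was higher, beside 40.8% of all genes called. The list median was -0.75, against -0.001 over all genes tested, but Col-0 replicate 3 weighs on it too. RD29B had 3.57 to 5.47 CPM and RAB18 had 8.65 to 17.3 CPM in the decoy line. Both overlapped Col-0, where replicate 3 stood at 36.4 and 191 CPM. The median without that library was not computed. HAI1, at 1.07 (SE 0.474, edgeR adjusted p = 0.087), and HAI2, at 0.19 (SE 0.754, edgeR adjusted p = 0.859), went the other way and did not pass. The 2 called lower were the homeodomain genes ATHB7 and ATHB12. ATHB7 had 10.2, 21.5 and 14.7 CPM in the decoy line, against 54.3, 49.7 and 83.9 CPM in Col-0. ATHB12 had 5.87, 12.3 and 8.43 CPM in the decoy line, against 28.8, 27.9 and 39.5 CPM in Col-0. Their log2 fold changes were -2.01 (SE 0.286, edgeR adjusted p = 0.000199) and -1.83 (SE 0.269, edgeR adjusted p = 0.000243), and both were called higher in the PIF3 over-expression line, at 1.89 and 1.57. In cfh1 none of the 10 passed the edgeR test, 0 had an unadjusted p under 0.05, and DESeq2 called 0.

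**Figure D5:**
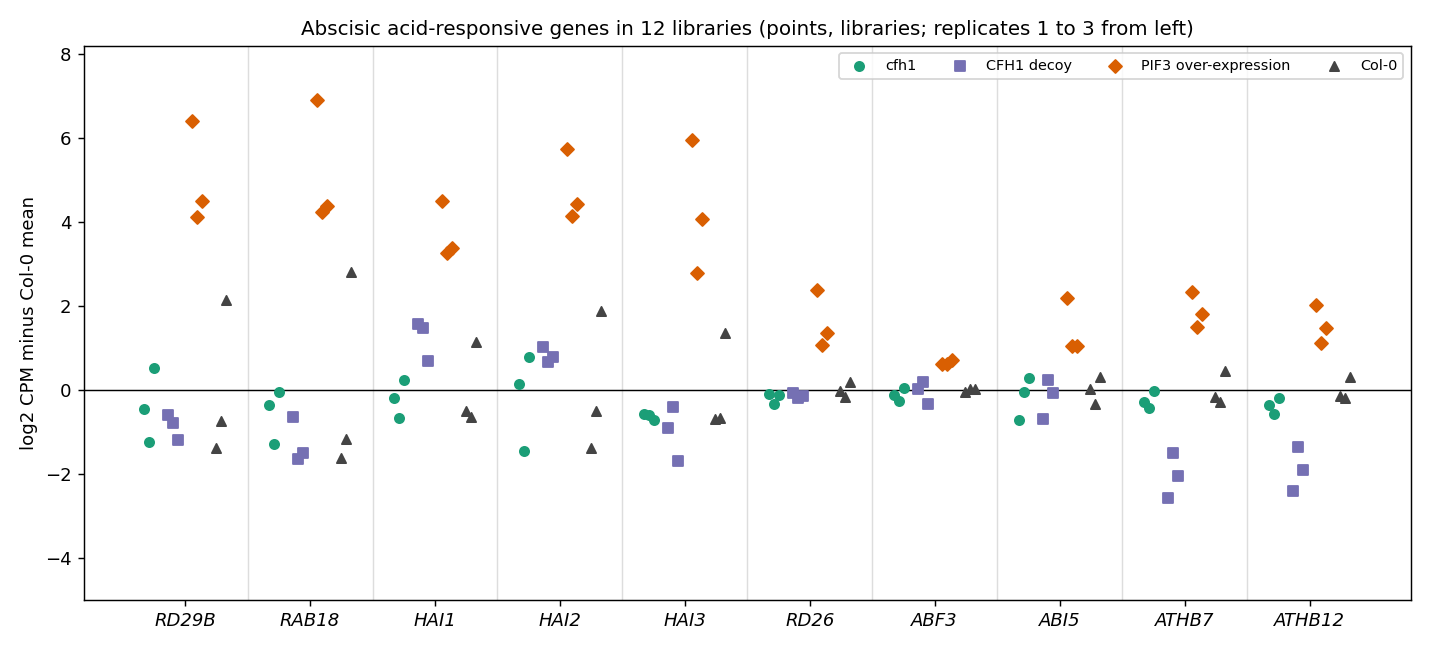
Level of 10 abscisic acid-induced genes in each of the 12 libraries as log2 CPM minus the mean log2 CPM of the Col-0 libraries (points are libraries, replicates 1 to 3 from left). All PIF3 over-expression libraries lie above all Col-0 libraries at every gene, Col-0 replicate 3 stands apart at RD29B, RAB18 and HAI1 to HAI3, and the decoy libraries lie below Col-0 at ATHB7 and ATHB12.

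Other genes of the pathway were described by role, and their counts against Col-0 stand beside 40.8% of all genes called in the decoy line and 13.3% in the PIF3 over-expression line. Of 7 genes that supply xanthophyll precursors, 3 were lower in the PIF3 over-expression line than in Col-0. BCH2, a carotene hydroxylase gene, had 11.1, 18.2 and 14.5 CPM there, against 30.1, 28.1 and 25.7 CPM in Col-0 (log2 fold change -0.94, SE 0.195, edgeR adjusted p = 0.00921). NPQ1, the violaxanthin de-epoxidase gene that works against ABA1, had 28.9, 32.6 and 41.0 CPM, against 57.0, 55.4 and 51.1 CPM in Col-0 (log2 fold change -0.67, SE 0.125, edgeR adjusted p = 0.0059). Neither gene overlapped between the lines. The lycopene cyclase gene LCYB, at -0.43, passed at an edgeR adjusted p of 0.0434, and lost the call with a replicate block (-0.44, edgeR adjusted p = 0.0726) and with library totals alone (-0.35, edgeR adjusted p = 0.0573). It also lost it without PIF3 over-expression replicate 1 or 3 or any Col-0 library, at -0.51 to -0.33. No gene of this list passed in the decoy line, where 1 had an unadjusted p under 0.05 and DESeq2 called 1, or in cfh1, where both counts were 0. Over all 21235 genes tested by edgeR, 10629 in the decoy line and 964 in cfh1 had an unadjusted p under 0.05.

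Other NCED and aldehyde oxidase genes (NCED2, NCED5, AAO1 and AAO2) gave no call against Col-0 in any line. By edgeR, 1 of the 4 had an unadjusted p under 0.05 in cfh1, 2 in the decoy line and 1 in the PIF3 over-expression line. Over all 21235 genes tested, 964, 10629 and 5752 had such a p in these lines, in the same order. DESeq2 called 0 of the 4 in any line. NCED5 passed against cfh1, with 1.09, 0.496 and 0.798 CPM in the decoy line (log2 fold change 2.59, edgeR adjusted p = 0.00222) and 1.04, 0.507 and 0.843 CPM in the PIF3 over-expression line (2.63, edgeR adjusted p = 0.00649), against 0.138, 0.187 and 0.0610 CPM in cfh1. In cfh1 NCED5 had 2 to 5 counts per library, so these folds rest on values near the limit of detection. DESeq2 also called both differences, and the other alternatives were not run for them. AAO4 and NCED6 were too low to test, with 63 counts and 1 count over the 12 libraries. DESeq2, which was run without that filter, called AAO4 in the decoy line, with 43 counts over its 3 libraries, against 3 counts over those of Col-0.

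Among 8 genes that conjugate the hormone, release it from its glucose ester or act later in breakdown, 2 were lower in the decoy line, the glucosidase genes BGLU18 at -0.87 (SE 0.256, edgeR adjusted p = 0.0163) and BGLU10 at -0.67 (SE 0.146, edgeR adjusted p = 0.00351). That share is below the 40.8% of all genes. BGLU18 lost the call without decoy replicate 1 (-0.67, edgeR adjusted p = 0.0625) or Col-0 replicate 1 (-0.78, edgeR adjusted p = 0.06). BGLU10 was the one gene of the list called higher in the PIF3 over-expression line, at 0.55 (SE 0.144, edgeR adjusted p = 0.0246), a call lost without replicate 1 of either group or Col-0 replicate 2. BGLU18 is known for releasing the hormone from its stored glucose ester.

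Of 6 transport genes, the decoy line was higher at 2 and lower at 1, a share near the 40.8% of all genes. The importer gene ABCG40 had 8.51, 2.26 and 8.81 CPM in the decoy line, against 0.603, 0.352 and 0.927 CPM in Col-0 (log2 fold change 3.38, SE 0.586, edgeR adjusted p = 0.000784). The efflux carrier gene DTX50 had 2.99, 1.46 and 1.70 CPM in the decoy line, against 9.30, 8.51 and 9.51 CPM in Col-0 (log2 fold change -2.20, SE 0.233, edgeR adjusted p = 1.8e-05). Neither overlapped Col-0. The exporter gene ABCG25, at 0.51 (edgeR adjusted p = 0.037), overlapped Col-0 and lost the call with library totals alone (0.24, edgeR adjusted p = 0.261), when the 2 genotypes were fitted by themselves and without decoy replicate 1 or 3 or Col-0 replicate 1 or 2, at 0.32 to 0.53. ABCG30 was higher in the PIF3 over-expression line, at 0.66 (SE 0.176, edgeR adjusted p = 0.0269), a call lost without PIF3 over-expression replicate 1 or any of the Col-0 libraries.

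Of 5 tested regulators of these genes, NGA1, known as an activator of NCED3 under drought, was the one lower in the decoy line, with 10.2, 10.8 and 11.1 CPM there, against 26.8, 23.1 and 22.6 CPM in Col-0 (log2 fold change -1.17, SE 0.145, edgeR adjusted p = 6.65e-05). NCED3 itself was not called in that line. Of the 5, 3 were higher in the PIF3 over-expression line than in Col-0. ATAF1, a NAC factor also known to act on NCED3, had 74.9, 62.3 and 63.2 CPM, against 31.6, 33.3 and 37.2 CPM in Col-0 (log2 fold change 0.97, SE 0.144, edgeR adjusted p = 0.00217). SOM, a zinc finger gene of light-dependent germination, had 10.04, 1.91 and 3.26 CPM, against 0.431, 0.587 and 0.859 CPM in Col-0 (log2 fold change 3.03, SE 0.632, edgeR adjusted p = 0.00942). SOM lost the call without Col-0 replicate 1 (2.81, edgeR adjusted p = 0.0568) and stood at 2.05 without PIF3 over-expression replicate 1. MYB96, at 0.41, passed at an edgeR adjusted p of 0.0383 and lost the call with a replicate block (0.41, edgeR adjusted p = 0.0687), and without PIF3 over-expression replicate 2 or 3 or any Col-0 library, at 0.32 to 0.44. ABI4 had 0 counts in all 12 libraries.

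The genes whose levels followed each of the 4 called genes most closely over the 12 libraries were found by Pearson's r of log2 CPM, a description in which the points share genotypes and scaling. For NCED3 they were ABI2 (r = 0.997), a phosphatase gene of abscisic acid signalling, OZF1 (0.986) and MGL (0.985). For CYP707A1 they were PSD2 (0.985), the induced gene ATHB12 named above (0.984) and MAN1 (0.983). For CYP707A3 they were AT4G31880 (0.966), AT1G28060 (0.963) and WRKY29 (0.959). For ABA3 they were AT5G28390 (0.991), AT1G10610 (0.990) and AT3G25910 (0.989).

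Markers of cell types and organs were counted in the same way, beside 40.8% of all genes called in the decoy line and 13.3% in the PIF3 over-expression line. Of 5 guard cell markers, 3 were lower in the decoy line and 2 in the PIF3 over-expression line. Their summed level was 34.5 to 53.9 CPM in the decoy line and 45.8 to 63.6 CPM in the PIF3 over-expression line, against 74.8 to 83.0 CPM in Col-0, and none of the 5 was at 0 counts. The sum was thus lower in both lines without overlap with Col-0. Its largest part was KAT1, at 14.85 CPM in the decoy line and 23.75 CPM in the PIF3 over-expression line, against 31.84 CPM in Col-0. In the PIF3 over-expression line 1 of the 5 went the other way, ALMT12 at 7.17 CPM, against 6.73 CPM in Col-0. In the decoy line 0 of the 5 had a log2 fold change above 0. Of 3 leaf markers, 1 was higher in the decoy line and 2 were lower in the PIF3 over-expression line, with sums of 37360 to 54530 CPM in the decoy line and 13810 to 21020 CPM in the PIF3 over-expression line, against 26260 to 28170 CPM in Col-0. The leaf sums of these lines lay on opposite sides of Col-0. Of 5 seed markers 3 had enough counts to be tested, CRA1 and CRU3 being too low, and EM6 was higher in the PIF3 over-expression line, with sums over the 5 of 3.91 to 15.5 CPM there, highest in replicate 1, against 0.574 to 1.61 CPM in Col-0, where CRU3 had 0 counts. In the decoy line the seed marker sum was 0.124 to 0.382 CPM, EM1 had 0 counts and none passed, although 2 had an unadjusted p under 0.05 and DESeq2 called 2. An unadjusted p under 0.05 was found there for 10629 of all 21235 genes tested by edgeR. Phloem markers gave 1 higher and 1 lower of 4 in the decoy line and 0 of 4 in the PIF3 over-expression line, with sums of 279 to 308 and 252 to 372 CPM, against 234 to 276 CPM in Col-0. Root markers gave 1 higher and 2 lower of 5 in the decoy line and 0 of 5 in the PIF3 over-expression line, with sums of 5401 to 7018 and 3879 to 4863 CPM, against 3386 to 4603 CPM in Col-0. Most of the root sum was the glucosidase gene PYK10, at 6091 ± 894 CPM in the decoy line, against 3388 ± 595 CPM in Col-0 (SD, n = 3 each), while NAI2, at 243 against 409 CPM, and EXPA7, at 5.201 against 13.3 CPM, were the 2 called lower. In the PIF3 over-expression line no phloem or root marker passed, 0 had an unadjusted p under 0.05, and DESeq2 called 0 of them. Of all 21235 genes tested by edgeR, 5752 had an unadjusted p under 0.05 in that line. In cfh1 no marker of any of the 5 lists passed, 0 had an unadjusted p under 0.05, and DESeq2 called 0. The part of these markers in the levels of the abscisic acid genes was not tested.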

How the data were processed

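The authors deposited estimated counts, which may be fractional, for genes named by AGI locus code in the 12 libraries. Fractions appeared in 41.57% of the cells (tolerance 1e-09). The submitters' notes on processing list Trimmomatic 0.39, HISAT2 2.1.0, StringTie 2.1.2 and the build TAIR10. How reads were counted, and whether by strand, was not given in the sources used here. Where estimated counts divide reads among similar genes, close relatives can borrow from each other. Values were rounded to whole numbers. With edgeR 4.0.16 in R 4.3.3, the filterByExpr filter (minimum count 10) was applied and libraries were scaled by TMM. The quasi-likelihood fit took the 12 libraries together, with a mean for each genotype, 8 residual degrees of freedom and a common BCV (biological coefficient of variation) of 0.172, and the 6 pairs of genotypes were compared, with adjustment over 21235 genes. CPM values are shown as single libraries or as mean ± SD, and log2 CPM for the likeness used a prior count of 2. The fit was tested on simulated data for the PIF3 over-expression line against Col-0 (20918 genes), where it recovered 9 of 50 genes changed 1.5-fold, 38 of 50 changed 2-fold, 50 of 50 changed 4-fold and 49 of 50 changed 8-fold. Only genes at 1 CPM or more in Col-0 were changed. These rates thus do not cover NCED9 and CYP707A4, at 0.389 and 0.845 CPM in Col-0.

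Locations, transcript lengths and promoters come from RefSeq TAIR10.1, which holds 27389 of the 27588 locus codes, and the deposited table itself has no coordinates. The 10 genes and all gene lists were chosen with earlier results of these data known. All 10 are named, with up to 3 called genes per list and direction against Col-0 and the 3 most alike genes per called gene. RD26, HAI1, HAI2, ABF3 and ABI5 of the induced list, the other NCED and AAO genes, and untested genes are named beyond that rule after their values were seen. Alternatives were DESeq2 1.42.0, RLE factors, scaling by library totals alone, no filter, a filter of 1 CPM in 3 libraries, a replicate block, fits of 2 groups alone or without the decoy libraries, and leaving out each library.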

Additional observations from a re-analysis of the deposited data

How the results depend on the processing

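Over the alternatives, 784 of 804 recomputed log2 fold changes of the 10 genes kept their direction and side of the threshold or stayed uncalled, 18 newly passed, 2 lost the call and none of the called ones changed sign, while 30 uncalled ones did. Every call of one of the 10 genes against Col-0 held in every alternative run, NCED3 from 1.78 to 2.45 and CYP707A1 from 1.00 to 1.59 in the PIF3 over-expression line, and CYP707A1 from -2.06 to -1.63, ABA3 from -1.13 to -0.70 and CYP707A3 from -1.19 to -0.85 in the decoy line. The number called in the PIF3 over-expression line was 4 against Col-0 without the decoy libraries, in place of 2. Against cfh1 it was 5 both by DESeq2 and without the decoy libraries, in place of 3. The genes added against cfh1 were CYP707A2, higher at 0.88 (DESeq2 adjusted p = 0.0309), and CYP707A3, lower at -0.545 (DESeq2 adjusted p = 0.044). Without the decoy libraries they stood at 0.89 (edgeR adjusted p = 0.0124) and -0.53 (edgeR adjusted p = 0.0328). Leaving out 1 library gave 2 to 3 called against Col-0 and 2 to 4 against cfh1. Between the decoy and PIF3 over-expression lines 6 were called with library totals alone, in place of 4, and 4 to 5 with 1 library left out. Library totals alone added ABA2 at -0.39 (edgeR adjusted p = 0.0108) and CYP707A3 at -0.82 (edgeR adjusted p = 0.00607), both lower in the decoy line. The 10 induced genes called higher in the PIF3 over-expression line than in Col-0 were 9 by DESeq2, which gave RAB18 no adjusted p, and 8 to 10 with 1 library left out. Over all genes, calls in cfh1 against Col-0 were 15, and 38 by DESeq2. In the PIF3 over-expression line against Col-0 they were 2829, with 4279 in a fit of the 2 groups alone, 4277 without the decoy libraries and 874 to 2519 with 1 library left out (1082 without PIF3 over-expression replicate 1, 874 and 1189 without Col-0 replicate 1 or 2). Against cfh1 they were 2735, and 899 to 2562 with 1 library left out (926 and 1788 without PIF3 over-expression replicate 1 or 3, 1141 and 899 without cfh1 replicate 1 or 2). The decoy line against cfh1 had 7055, and 4425 in a fit of the 2 groups alone. With library totals alone the median of all genes against Col-0 moved to -0.25 in the decoy line, where 1720 were called higher and 6929 lower in place of 4163 and 4504, and to 0.08 in the PIF3 over-expression line, with 1818 and 1140 in place of 1275 and 1554. Relative to cfh1 the medians were -0.23 in the decoy line (1304 higher, 6039 lower, in place of 3191 and 3864) and 0.10 in the PIF3 over-expression line (1664 and 904 in place of 1211 and 1524), and between the decoy and PIF3 over-expression lines -0.36 (1973 and 9120 in place of 4363 and 4827). Nothing in the labels says that library numbers pair the libraries. The deviations of same-numbered libraries correlated at -0.364 to 0.271 over 18 pairs, 2 of them above 0.1. Each deviation is from a mean of 3 libraries, so these values cannot settle the pairing. With a replicate block the PIF3 over-expression line had 2 of the 10 genes called against Col-0, NCED3 at 2.18 and CYP707A1 at 1.36, and the decoy line 3. By coding length in place of transcript length the order of levels in Col-0 was the same, and CYP707A1 in the decoy line shared rank 5.5 with CYP707A2 at 3.79 CPM per coding kilobase. Depth limits NCED9 and CYP707A4 most, at 7 to 35 and 7 to 123 counts per library.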
